A study of Mus musculus with 29 samples.

Results

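The genes described here were the matrix metalloproteases (MMPs), the ADAMTS proteases, the ADAMTS-like proteins and the tissue inhibitors of metalloproteases (TIMPs). They were taken by symbol, as every row of the deposited count table named Mmp, Adamts, Adamtsl or Timp followed by its number. This gave 51 genes of 24421, made up of 23 Mmp, 19 Adamts, 5 Adamtsl and 4 Timp genes. RNA was sequenced from the peritoneum of 29 female C57BL/6J mice, 5 to 6 weeks old at the start, that had received YTN16 mouse gastric cancer cells into the peritoneal cavity on day 0. At 3wk (day 21) there were 5 untreated mice, given PBS, and 5 dual ICI mice, given the immune checkpoint inhibitors anti-PD1 (10 mg/kg) and anti-CTLA4 (5 mg/kg) on days 5, 8 and 12. At 5wk (day 35), with injections also on days 21 and 28, there were 5 untreated mice given PBS, 5 anti-PD1 mice, 4 anti-CTLA4 mice and 5 dual ICI mice. All 29 samples are labelled tumor tissue, and by the study's methods they are stripped peritoneum with or without nodules. All mice carried the same implanted cells, so no group holds peritoneum that never met a tumor. The labels give the 5 dual ICI libraries at 5wk as 1 group. They were split into 2 dual ICI-uncured mice (numbers 1 and 5) and 3 dual ICI-cured mice (numbers 2, 3 and 4) by taking the number in each title as the mouse number used in the study, and the undivided group was tested as well.

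MMPs are zinc-dependent enzymes, most of them secreted and some anchored in the membrane, that cut collagens, laminins, elastin and other proteins of the extracellular matrix. ADAMTS enzymes are secreted relatives that cut proteoglycans such as aggrecan and versican or trim procollagens, and the ADAMTS-like proteins share their ancillary domains but lack the protease domain. TIMPs bind the active site of these enzymes and block it, and in tumor-bearing tissue proteases and inhibitors come from cancer cells, fibroblasts and immune cells alike.

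A block of 10 Mmp genes lies on mouse chromosome 9 between 7272514 and 7699585 (GRCm38), in the order Mmp13, Mmp12, Mmp1b, Mmp3, Mmp1a, Mmp10, Mmp8, Mmp27, Mmp20 and Mmp7. It holds several of the members that differed most between tumor-bearing and cured peritoneum, so the promoters of 5 of them are shown. Each line gives the 100 bases just before a RefSeq transcription start (GRCm38.p6, plus strand, 5′ to 3′), with the AP-1 motif TGAGTCA or its reverse complement TGACTCA, and TATAAA in the direction of the gene, in capitals. AP-1 is the Fos and Jun family of transcription factors.
Mmp13 promoter: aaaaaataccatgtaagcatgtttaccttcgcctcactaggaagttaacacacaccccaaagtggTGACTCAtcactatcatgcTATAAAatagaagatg
Mmp12 promoter: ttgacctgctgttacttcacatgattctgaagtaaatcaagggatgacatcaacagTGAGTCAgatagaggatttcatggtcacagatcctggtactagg
Mmp3 promoter: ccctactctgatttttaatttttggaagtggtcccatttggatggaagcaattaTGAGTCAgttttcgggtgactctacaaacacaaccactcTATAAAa
Mmp7 promoter: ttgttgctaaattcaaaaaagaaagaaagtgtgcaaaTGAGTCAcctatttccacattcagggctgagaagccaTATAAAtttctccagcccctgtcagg
Mmp8 promoter: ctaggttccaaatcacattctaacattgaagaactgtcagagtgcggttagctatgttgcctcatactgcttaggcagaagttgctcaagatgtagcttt
The windows are chr9:7272414-7272513 for Mmp13, chr9:7347274-7347373 for Mmp12, chr9:7445722-7445821 for Mmp3, chr9:7691990-7692089 for Mmp7 and chr9:7558329-7558428 for Mmp8, and none of them overlaps an annotated exon. The Mmp12 window precedes the inner of 2 RefSeq starts of that gene and lies in an intron. The Mmp7 window precedes the first of 2 RefSeq starts. For both genes the start shown was chosen because the AP-1 motif precedes it. Their other start has neither motif in the 250 bases before it. The AP-1 motif begins at position -35 from the start in Mmp13, -44 in Mmp12, -46 in Mmp3 and -63 in Mmp7, and the window of Mmp8 holds neither motif. Over 250 bases before the start, TGAGTCA or TGACTCA was found in 4.46% of 32851 RefSeq promoters, in 7 of 12 promoters of the block and in 0 of 27 promoters of the other members that had an entry. The corresponding shares for TATAAA were 7.59%, 7 of 12 and 3 of 27. The 2 motifs do not share bases, and a match describes these letters only. Block genes with the AP-1 motif include Mmp1a and Mmp1b, which had 0 counts in every library. Mmp10 also has it and stayed under a mean of 1 CPM in every group. Promoter entries were found for 36 of the 51 members. Those without one were Adamts4, Adamts5, Adamts6, Adamts7, Adamts8, Adamts10, Adamts15, Adamts16, Adamts19, Adamtsl1, Mmp2, Mmp9, Mmp16, Mmp17 and Mmp19.

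The libraries held 25989217 to 31219650 counts, of which the members took 0.154% to 0.401%. Levels below are in CPM, the usual depth-scaled count unit, taken over library totals scaled by trimmed means of M values (TMM). Marker lists set the tissue in view. Of 26 gastric epithelium markers, all in the table, the mean log2 CPM was 3.25 to 5.28 in untreated 5wk mice and -1.07 to 0.325 in dual ICI-cured mice, where Tff1, Muc5ac, Gkn1 and Gkn2 were at 0 in every library. The 30 skeletal muscle markers took 26.6% to 28.3% of all counts in dual ICI-cured mice and 7.73% to 25.4% in untreated 5wk mice. The library of anti-PD1 mouse 5 stood apart from the other 4 of its group, with a gastric epithelium score of 0.123. Study notes say that 1 of the 5 anti-PD1 mice was cured, and the labels do not say which. Results for that group are therefore given with and without it.

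Most of the family's RNA came from a few genes. Divided by exon length, to compare genes with each other, Mmp2 (gelatinase A, which cuts type IV collagen) was the highest Mmp gene in all 7 groups, at a group mean between 80.6 CPM per kb in dual ICI-cured and 139 CPM per kb in untreated 3wk mice. Mmp14, the membrane-type protease that activates pro-MMP2, came next in all 7 groups, at 17.9 to 54.7 CPM per kb. Timp2, which helps Mmp14 to activate Mmp2 as well as inhibiting MMPs, was the highest inhibitor everywhere, at 117 to 178 CPM per kb. Timp1 followed Timp2 in 6 groups and stood below Timp3 in dual ICI-cured mice. Adamts1 and Adamts2 led the Adamts genes in every group but dual ICI-uncured, where Adamts15 stood between them. At the other end, Mmp1a and Mmp1b had 0 counts in every library, Mmp20 and Mmp21 had at most 3 counts in any library, and 10 members stayed under a mean of 1 CPM in every group (also Adamts13, Adamts18, Mmp8, Mmp10, Mmp16 and Mmp24). The summed Mmp level was 977 ± 192 CPM (SD, n = 5) in untreated 5wk mice and 548 ± 10.1 CPM (SD, n = 3) in dual ICI-cured mice, and every untreated 5wk library was above every cured one. The Adamtsl sum ran the other way, at 180.3 ± 11.7 CPM (SD, n = 5) and 270.8 ± 3.43 CPM (SD, n = 3). These sums were not tested.

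**Figure D1:**
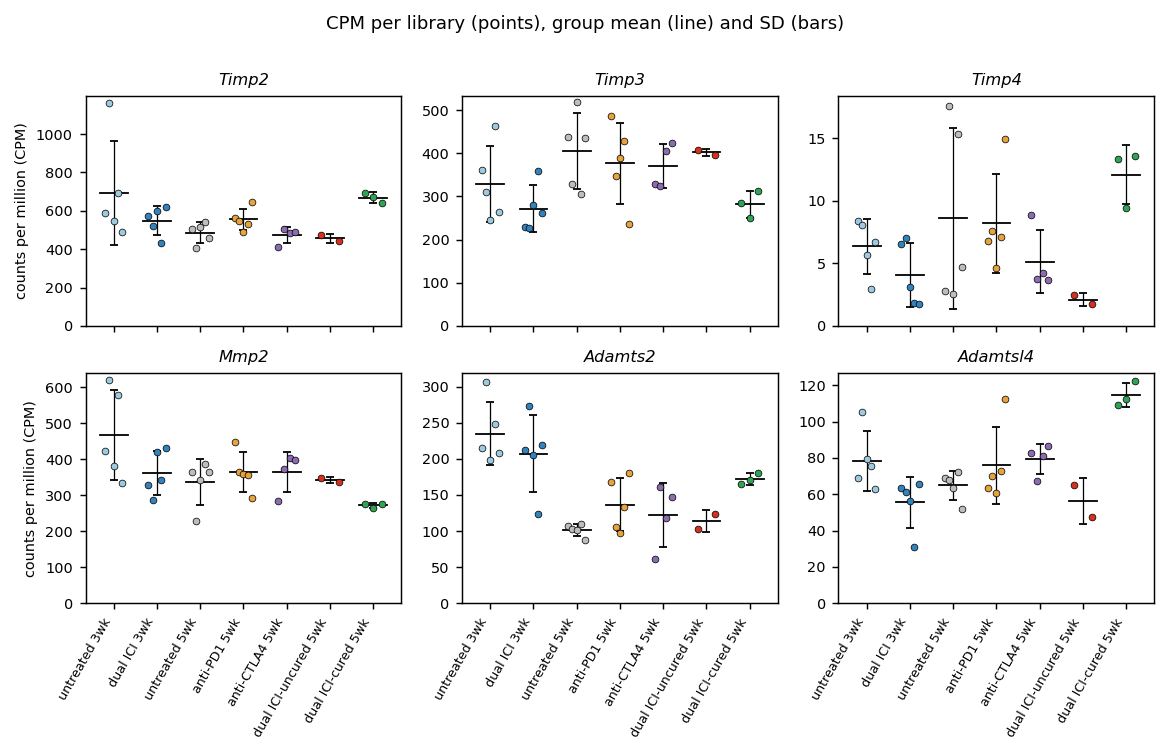
CPM (y axis, linear) of 6 abundant or inhibitor genes in each of the 29 libraries, by group (x axis), with points for libraries, a line for the group mean and bars for the SD. The group means of Timp2, Timp4 and Adamtsl4 are highest among the 5wk groups in the dual ICI-cured mice, and Adamts2 is between 87.9 and 109 CPM in all 5 untreated 5wk libraries against at least 198 CPM in all 5 untreated 3wk libraries.

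The first question was which of these genes separated peritoneum with tumor from peritoneum of the cured mice at 5wk. Timp1, the secreted inhibitor that wounds and tumors induce, and a set of secreted and membrane-bound proteases (Mmp3, Mmp7, Mmp12, Mmp14, Adamts4, Adamts15) were higher with tumor, while Adamts2, a procollagen N-proteinase, and Adamtsl3, Adamtsl4 and Adamtsl5 were lower in at least untreated and dual ICI-uncured mice. Compared with the 3 dual ICI-cured mice, 21 of 44 members tested passed an adjusted p of 0.05 in untreated 5wk mice (14 higher, 7 lower), where 44.7% of all genes tested passed (26.7% higher, 18.0% lower). The count was 23 of 44 (20 higher, 3 lower) for anti-CTLA4 mice, against 62.5% of all genes (33.6% higher, 28.8% lower). For the 2 dual ICI-uncured mice it was 29 of 44 (21 higher, 8 lower), against 70.0% of all genes (36.9% higher, 33.1% lower). It was 16 of 44, all higher, for the 5 anti-PD1 mice, against 18.8% of all genes (16.3% higher, 2.53% lower). The members' shares of 47.7%, 52.3%, 65.9% and 36.4% for untreated, anti-CTLA4, dual ICI-uncured and anti-PD1 mice were thus close to that of all genes for untreated and dual ICI-uncured mice, below it for anti-CTLA4 mice and above it for anti-PD1 mice. The last difference was gone without anti-PD1 mouse 5, where 68.2% of members and 68.4% of all genes passed. Their median log2 fold change of 0.34 to 0.45 lay above that of all genes tested, 0.05 in each comparison. Setting Mmp7, Mmp8 and Mmp13 to the lower bound of their counting interval leaves this median as it is by construction, since the bounds lie above it. In bulk tissue, fewer cells of a type and less RNA per cell cannot be told apart. The 4 comparisons share the same 3 cured mice. By family, every Mmp gene that passed was higher than in cured mice (9, 10, 12 and 13 of 17 tested, against untreated, anti-PD1, anti-CTLA4 and dual ICI-uncured mice in turn), and every Adamtsl gene that passed was lower (4, 0, 1 and 3 of 5). Mmp7, Mmp8 and Mmp13, among these Mmp calls in each comparison, could only come out higher. They had almost no counts in cured mice and passed the filter on low counts through the other group alone. Adamtsl2 passed in none of the 4, at a log2 fold change of 0.04 for untreated mice. Higher in all 4 comparisons were 14 members, Adamts4, Adamts7, Adamts9, Adamts15, Mmp3, Mmp7, Mmp8, Mmp11, Mmp12, Mmp13, Mmp14, Mmp15, Mmp28 and Timp1, and lower in all 4 was none. For Mmp7, Mmp8 and Mmp13 among them the direction was fixed by the filter.

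**Figure D2:**
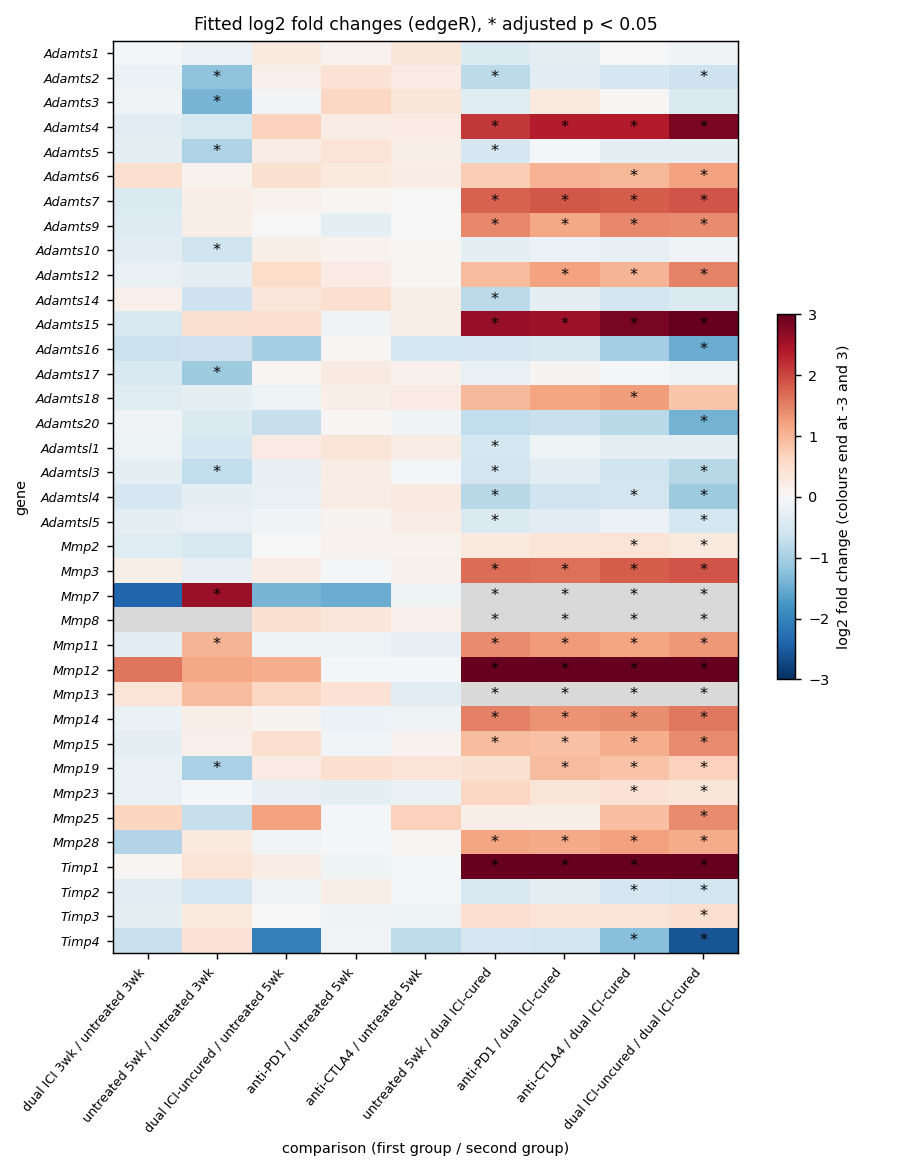
Log2 fold change of the 37 members described singly (rows) in 9 comparisons (columns, first group over second), red for higher and blue for lower in the first group, colours ending at -3 and 3, with an asterisk for an adjusted p under 0.05. Grey marks a gene that was not tested or, for Mmp7, Mmp8 and Mmp13 against dual ICI-cured mice, a group with only 1 or 2 counts, where no fitted fold is given.

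Among the inhibitors, Timp1 showed the widest gap. Its CPM was 64.9, 36.3, 55.0, 88.3 and 40.8 in the 5 untreated 5wk mice, 56.9, 56.6, 48.1 and 62.6 in the 4 anti-CTLA4 mice, 48.0 and 84.8 in the 2 dual ICI-uncured mice and 4.04, 2.24 and 2.57 in the 3 dual ICI-cured mice. No library of those 3 tumor-bearing groups came near a cured one. The log2 fold change over cured mice was 4.25 (SE 0.367, adjusted p = 1.28e-04) for untreated, 4.24 (SE 0.217, adjusted p = 3.35e-05) for anti-CTLA4 and 4.47 (SE 0.294, adjusted p = 2.84e-06) for dual ICI-uncured mice by edgeR's quasi-likelihood test, that is 19.0-fold, 18.8-fold and 22.2-fold. Timp1 lies at X:20870166-20874735. Timp2, at 695, 672 and 642 CPM in the cured mice and 473 and 441 CPM in the uncured ones, was lower in the anti-CTLA4 (log2 -0.51, SE 0.136, adjusted p = 0.0111) and dual ICI-uncured mice (log2 -0.58, SE 0.101, adjusted p = 9.31e-04). Untreated 5wk mice had 507, 408, 515, 544 and 460.4 CPM, all below the cured mice, and did not pass the test (adjusted p = 0.0596). Timp3, the inhibitor that binds to matrix and also blocks ADAMTS enzymes, differed little, with 408 and 396 CPM in dual ICI-uncured and 284, 249 and 312 CPM in dual ICI-cured mice (log2 0.49, SE 0.114, adjusted p = 0.00481). Its exons overlap Syn3 on the other strand by 1733 bases, and whether counting used strand is not stated. Timp4, an inhibitor best known from heart and muscle, was at 13.3, 9.40 and 13.6 CPM in cured mice, 2.47 and 1.72 CPM in uncured and 8.90, 3.74, 4.26 and 3.68 CPM in anti-CTLA4 mice, so that neither of these tumor-bearing groups overlapped the cured one. It was 5.90-fold lower in uncured (log2 -2.56, SE 0.259, adjusted p = 3.32e-05) and 2.37-fold lower in anti-CTLA4 mice (log2 -1.24, SE 0.330, adjusted p = 0.0112). Untreated 5wk mice ranged from 2.58 to 17.6 CPM and overlapped them. Skeletal muscle markers took 6.87% to 9.42% of counts in uncured and 5.32% to 18.8% in anti-CTLA4 mice, below the share in cured mice. Adipocyte marker scores were 4.48 to 4.71 in uncured and 6.17 to 6.90 in cured mice, and 8 of 8 markers passed, all lower, beside 33.1% of all genes. In anti-CTLA4 mice these scores ran from 3.55 to 6.25, which overlapped the cured mice, and 1 of 8 passed. The part of muscle and adipocytes in the Timp4 result was not tested. Timp4 shares 90 exonic bases with Syn2 on the other strand.

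Of the secreted proteases in the chromosome 9 block, Mmp7 (matrilysin, an enzyme of glandular epithelium) was close to absent after cure. In untreated 5wk mice it was at 14.9, 4.64, 28.1, 24.5 and 38.4 CPM and in the cured mice at 0.0512, 0 and 0 CPM, the latter from 1 count in 3 libraries. After scaling for library totals, untreated mice had a count ratio to cured mice of 1396 (95% interval 250.4 to 55160.4), anti-CTLA4 mice 1264 (95% interval 227 to 49952) and dual ICI-uncured mice 497 (95% interval 88.8 to 19657), intervals that cover counting error only. Within each tumor-bearing group it still varied widely, from 3.14 to 38.3 CPM in anti-CTLA4 mice. Mmp13, a collagenase, and Mmp8, the collagenase of neutrophils, had 2 counts each in the cured mice together. Untreated 5wk mice had 1.86, 0.813, 4.43, 1.07 and 0.734 CPM of Mmp13 and 0.715, 0.203, 0.586, 0.318 and 0.793 CPM of Mmp8. The Mmp13 and Mmp8 count ratios to cured mice were 57.2 (95% interval 15.7 to 475) and 16.9 (95% interval 4.53 to 142). The adjusted p of all 3 genes in edgeR was at most 0.00944 against untreated, 0.00318 against anti-CTLA4 and 0.00214 against dual ICI-uncured mice. All 3 passed the filter on low counts through the tumor-bearing group alone, so only a higher level could be called. Mmp12, the elastase of macrophages, was at 0.256, 1.22 and 0.630 CPM in cured, 7.47, 3.82, 4.84, 6.24 and 7.87 CPM in untreated 5wk and 10.6 and 15.2 CPM in uncured mice, with the groups apart. It was 8.38-fold higher in untreated (log2 3.07, SE 0.470, adjusted p = 9.79e-04) and 17.8-fold higher in uncured than in cured mice (log2 4.16, SE 0.428, adjusted p = 3.71e-05). Mmp3, stromelysin 1, which cuts many matrix proteins and activates other MMPs, was at 11.7, 16.1 and 11.0 CPM in cured, 44.0, 33.5, 42.1, 53.1 and 37.3 CPM in untreated 5wk and 25.6, 65.2, 47.9 and 46.3 CPM in anti-CTLA4 mice. It was 3.19-fold, 3.54-fold and 3.71-fold higher in untreated, anti-CTLA4 and uncured mice (adjusted p = 2.84e-04, 0.00137 and 2.11e-05). Mmp7 shares 123 exonic bases with an antisense gene and Mmp12 shares 157 with Mmp1b on the other strand, where Mmp1b itself had 0 counts.

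**Figure D3:**
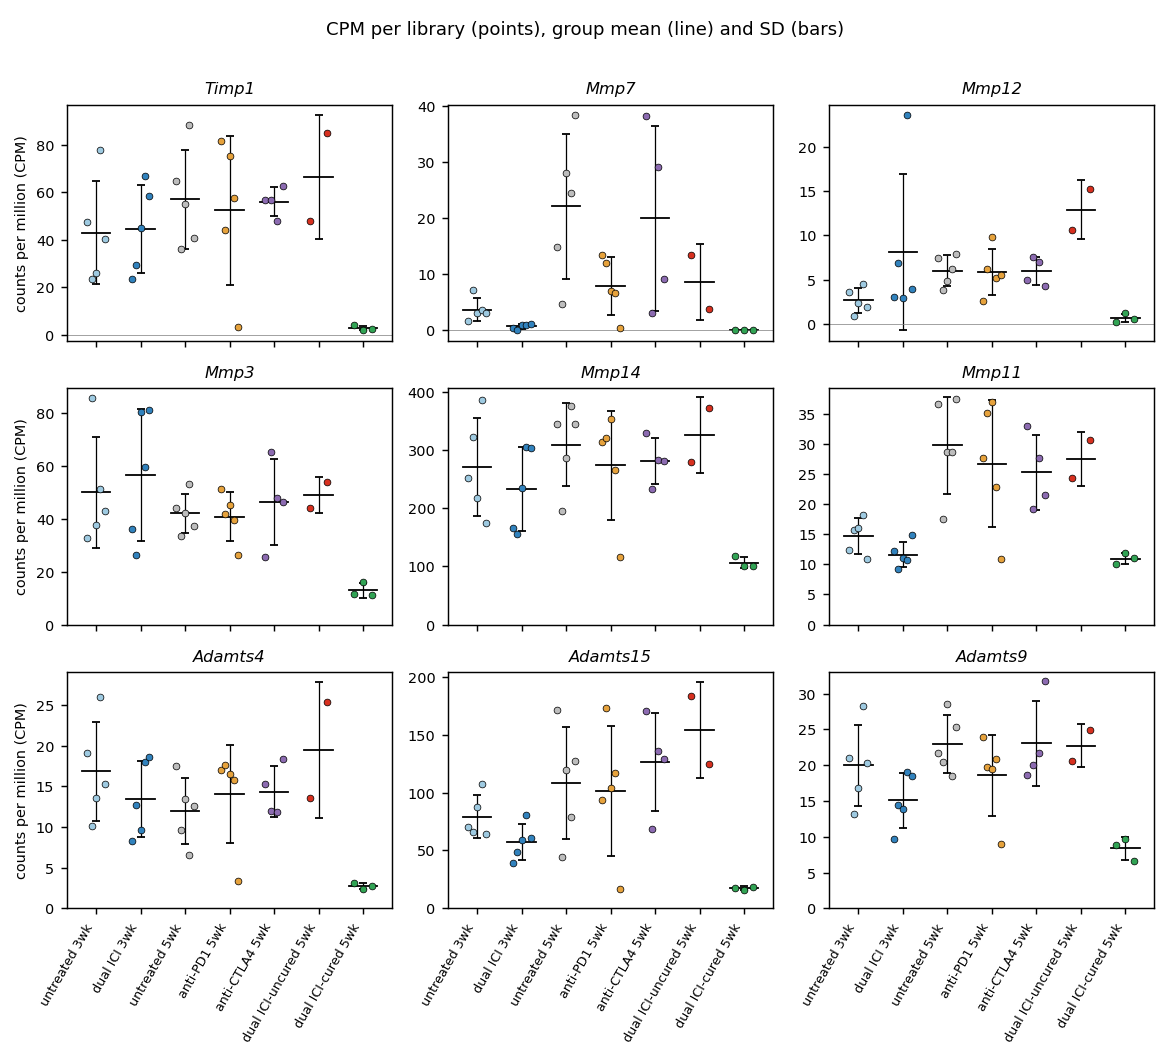
CPM (y axis, linear) of 9 members in each library, by group (x axis), with points for libraries, lines for group means and bars for the SD. The 3 dual ICI-cured libraries lie below every library of the untreated 5wk, anti-CTLA4 and dual ICI-uncured groups for all 9 genes, and 1 anti-PD1 library (mouse 5) lies near them for most.

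**Figure D4:**
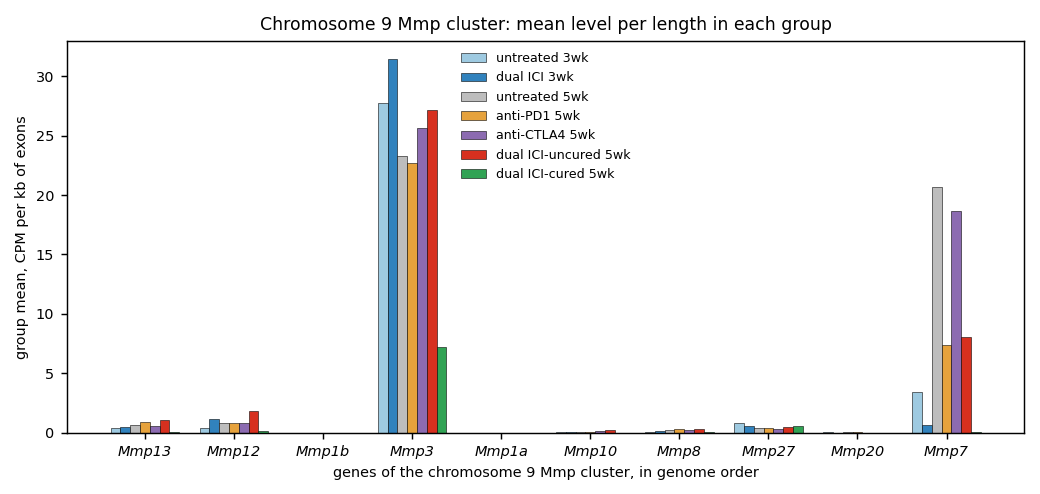
Group mean level in CPM per kb of exons (y axis, linear from 0, means only) of the 10 Mmp genes of the chromosome 9 block in genome order (x axis), 1 bar for each group. Mmp3 and Mmp7 hold nearly all of the signal, Mmp3 in every group and Mmp7 mainly at 5wk outside the dual ICI-cured mice.

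Membrane-bound and other Mmp genes moved by less. Mmp14 was at 117, 101 and 101 CPM in cured, 344, 194, 286, 375 and 344 CPM in untreated 5wk and 279.8 and 372 CPM in uncured mice, a 2.85-fold and 3.01-fold difference (adjusted p = 0.00103 and 1.33e-05). Mmp15, another membrane-type protease, was 1.93-fold higher in untreated and 2.68-fold higher in uncured than in cured mice (adjusted p = 0.00384 and 1.01e-05). Mmp11, stromelysin 3, a gene of tumor stroma, was at 9.98, 11.9 and 11.0 CPM in cured and 36.6, 17.5, 28.6, 28.6 and 37.4 CPM in untreated 5wk mice, and the groups did not overlap (log2 1.41, SE 0.240, adjusted p = 0.0017). Mmp28, epilysin, was 2.25-fold higher in untreated mice (adjusted p = 0.0126), a call that was lost without cured mouse 3 or 4. Mmp25, a membrane-anchored enzyme of leukocytes, passed only for uncured mice, at 4.62 and 4.53 CPM against 1.59, 2.09 and 1.36 CPM (log2 1.41, SE 0.266, adjusted p = 0.00139). Mmp19 passed for anti-PD1 (log2 0.94, SE 0.245, adjusted p = 0.0409), anti-CTLA4 (log2 0.86, SE 0.196, adjusted p = 0.00564) and uncured mice (log2 0.70, SE 0.188, adjusted p = 0.00924). The anti-PD1 call of Mmp19 was lost without any 1 of 7 of the 8 mice, and the uncured call without uncured mouse 5. It shares 789 exonic bases with Tmem198b on the other strand. Of the Mmp genes that passed, Mmp2 differed least. It was at 275, 265 and 275 CPM in cured and 347 and 336 CPM in uncured mice, 1.23-fold apart (log2 0.30, SE 0.0910, adjusted p = 0.0158), and 1.33-fold higher in anti-CTLA4 mice (log2 0.42, SE 0.153, adjusted p = 0.0424), calls that were lost without any 1 of 3 of the 5 mice and any 1 of 6 of the 7 mice. Mmp23 passed for the same pair of groups, at 1.30-fold and 1.36-fold, and lost its call without any 1 of 4 of the 5 and any 1 of 3 of the 7 mice. The fibroblast marker score of uncured mice (7.83 to 8.12) lay above that of cured mice (7.59 to 7.67). In that comparison 8 of 14 markers passed (6 higher, 2 lower), beside 70.0% of all genes (36.9% higher, 33.1% lower). Scores of anti-CTLA4 (7.46 to 8.27) and untreated 5wk mice (7.53 to 8.06) overlapped those of cured mice. The part of fibroblasts in the Mmp2 and Mmp23 results was not tested.

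Among the ADAMTS proteases, Adamts15 and Adamts4, both of which cut proteoglycans, were the most different. Adamts15 was at 17.7, 15.8 and 18.8 CPM in cured, 172, 44.4, 119.7, 79.2 and 127 CPM in untreated 5wk, 171, 69.0, 136 and 129 CPM in anti-CTLA4 and 183 and 125 CPM in uncured mice, and no library of these 3 groups was as low as a cured one. The gap was 6.10-fold, 7.17-fold and 8.65-fold (adjusted p = 8.80e-04, 1.55e-04 and 1.01e-06). Adamts4 (aggrecanase 1) was at 3.07, 2.39 and 2.71 CPM in cured and 17.5, 9.60, 13.5, 6.60 and 12.6 CPM in untreated 5wk mice, 4.32-fold apart (log2 2.11, SE 0.318, adjusted p = 8.84e-04), and 7.03-fold higher in uncured mice. Adamts7, an enzyme that cuts cartilage oligomeric matrix protein, and Adamts9, a versican-cutting enzyme, were higher in untreated mice by 1.78 and 1.43 on the log2 scale (adjusted p = 6.16e-04 and 6.86e-04). Adamts12 was 2.03-fold higher in anti-CTLA4 and 2.83-fold higher in uncured mice (adjusted p = 0.011 and 0.00163) and missed the threshold for untreated mice (log2 0.95, SE 0.528, adjusted p = 0.165), which ranged from 5.45 to 30.1 CPM. Adamts6 also passed for those 2 groups, 1.98-fold and 2.30-fold higher, calls lost without any 1 of 2 of the 7 mice and 1 of the 5 mice, and Adamts18 passed for anti-CTLA4 mice alone at under 1 CPM, a call lost without any 1 of 5 of the 7 mice. Whether the differences of these genes varied between the 4 comparisons was not tested. Adamts9 shares 1381 exonic bases with genes on the other strand, Adamts4 171, Mmp11 155 and Adamts7 122, and Mmp28 overlaps such a gene too, so their counts carry the same doubt as those of Timp3.

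Besides Timp2 and Timp4, 9 members were lower with tumor in at least 1 of the 4 comparisons, all of them Adamts or Adamtsl genes. Adamts2 was at 165, 170.1 and 181 CPM in cured and 107, 102, 101, 109 and 87.9 CPM in untreated 5wk mice, 1.72-fold lower (log2 -0.78, SE 0.140, adjusted p = 0.00218), and was also lower in uncured mice (log2 -0.63, SE 0.115, adjusted p = 0.00121). Adamts14, its close relative in procollagen processing, was 1.71-fold lower in untreated mice (adjusted p = 0.0121), a call lost without cured mouse 3. Adamtsl4, a protein that binds fibrillin microfibrils, was at 109, 112 and 122 CPM in cured, 69.1, 68.1, 63.4, 72.0 and 51.7 CPM in untreated 5wk, 82.5, 67.4, 81.1 and 86.7 CPM in anti-CTLA4 and 65.2 and 47.3 CPM in uncured mice. Every library of these 3 groups was below every cured one, at log2 -0.84 (SE 0.146, adjusted p = 0.00192), -0.54 (SE 0.110, adjusted p = 0.00326) and -1.06 (SE 0.140, adjusted p = 1.73e-04). Adamtsl3 and Adamtsl5 were lower in untreated (log2 -0.59 and -0.42) and uncured mice (log2 -0.82 and -0.53). Of these, the untreated calls, like those of Adamtsl1 (log2 -0.52) and Adamts5 (log2 -0.50), a second aggrecanase, depended on single mice. Adamts16 and Adamts20 were lower in uncured mice alone, at log2 -1.49 (SE 0.443, adjusted p = 0.0149) and -1.42 (SE 0.319, adjusted p = 0.0037), and the Adamts16 call was lost without uncured mouse 1. Across the comparisons of untreated, anti-CTLA4 and uncured with cured mice, 15 of 21, 19 of 23 and 24 of 29 calls were kept in every fit that left out 1 mouse and still tested the gene.

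The anti-PD1 group was divided, with mouse 5 apart from the other 4 for many but not all of these genes. Timp1 was at 81.6, 43.9, 75.4, 57.6 and 3.30 CPM in mice 1 to 5, Mmp7 at 13.3, 11.9, 7.07, 6.56 and 0.310 CPM, Adamts15 at 93.8, 173, 104, 117 and 17.0 CPM and Adamtsl4 at 63.4, 69.9, 60.9, 72.9 and 112 CPM. Mouse 5 was the lowest for the first 3 and the highest for the fourth. For Timp1, Adamts15 and Adamtsl4 it lay inside the range of the cured mice. For Mmp7 it lay above the cured mice, which had at most 0.0512 CPM. For Mmp12 it lay, at 5.52 CPM, inside the range of the other 4 (2.64 to 9.86 CPM) and above the cured mice (0.256 to 1.22 CPM). For Mmp3 it was the lowest of its group, at 26.5 CPM, but above the cured mice (11.0 to 16.1 CPM). Without mouse 5, 30 of 44 members passed (21 higher, 9 lower), against 68.4% of all genes tested (36.5% higher, 31.9% lower). Timp1 then had log2 4.45 (SE 0.292, adjusted p = 3.36e-06), Adamts15 2.80 (SE 0.219, adjusted p = 8.44e-06), Adamts4 2.61 (SE 0.132, adjusted p = 1.06e-06), Mmp3 1.77 (SE 0.157, adjusted p = 1.70e-05) and Adamtsl4 -0.78 (SE 0.0903, adjusted p = 7.19e-05). With mouse 5 kept, the 16 calls had adjusted p-values of 0.0403 to 0.0493, and 0 members passed when any other mouse of either group was left out.

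Marker levels of other cell types differed between the same groups, in lists that share no gene with the members. The 3 cured libraries and the library of anti-PD1 mouse 5 had gastric epithelium scores of -1.07 to 0.325 and 133 to 222 summed marker CPM, and the scores of the other 25 were at least 2.76. Neutrophil markers (11 of 12 in the table) summed to 7.79 to 9.83 CPM in cured mice, with Mpo and Ngp at 0, and 33.5 to 118 CPM in untreated 5wk mice. Macrophage markers (12 of 12) summed to 1275 to 1385 CPM in cured and 953 to 2128 CPM in untreated 5wk mice, which overlap, but to 2073 to 2403 CPM in uncured and 1559 to 2516 CPM in anti-CTLA4 mice, which do not overlap cured mice. In uncured against cured mice 11 of 12 macrophage markers passed, all higher, beside 36.9% of all genes that were higher. T cell markers (9 of 10) summed to 10.8 to 15.0 CPM in cured, 18.7 to 32.3 CPM in untreated 5wk, 23.0 to 29.6 CPM in anti-CTLA4 and 52.2 to 55.3 CPM in uncured mice, and none of these 3 groups overlapped the cured one. Mesothelium markers (7 of 8) summed to 46.2 to 196 CPM in cured and 491 to 1664 CPM in untreated 5wk mice. Krt19 among them is also on the gastric epithelium list, so this sum is not of mesothelium alone. Of the 7, 4 passed in untreated against cured mice, all higher, beside 26.7% of all genes that were higher. Adipocyte and endothelial markers went the other way. In uncured against cured mice 8 of 8 and 6 of 9 passed, all lower, beside 33.1% of all genes that were lower. In untreated 5wk against cured mice 1 of 8 and 2 of 9 passed, all lower, beside 18.0% of all genes. The part of these cell types in the differences between the members was not tested. Leaving the muscle genes out of the scaling and the test again gave 21 calls of members in untreated against cured mice.

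**Figure D5:**
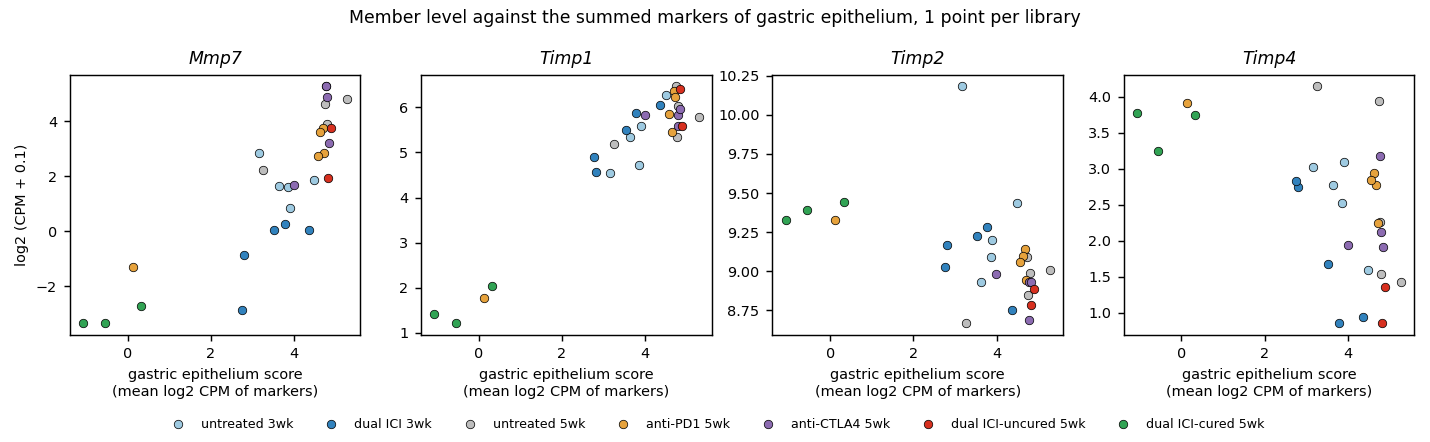
Log2 (CPM + 0.1) of Mmp7, Timp1, Timp2 and Timp4 (y axes) against the mean log2 CPM of 26 gastric epithelium markers (x axis), 1 point per library, coloured by group. The 3 dual ICI-cured libraries and anti-PD1 mouse 5 form a cluster at scores of at most 0.325, low in Mmp7 and Timp1.

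The second question was whether treatment changed these genes in tumors that persisted. By edgeR's quasi-likelihood test 0 of 45 members passed in dual ICI-uncured against untreated 5wk mice, where 0.0% of all genes passed, and 5 had an unadjusted p under 0.05, against 4.87% of all genes. DESeq2 also gave 0, here and for anti-PD1, anti-CTLA4 and all dual ICI mice against untreated ones. Mmp12 was at 10.6 and 15.2 CPM in the 2 uncured mice, above all 5 untreated ones (3.82 to 7.87 CPM), with a log2 difference of 1.09 (SE 0.305, adjusted p = 0.734). Mmp25 was at 4.62 and 4.53 CPM, again above the untreated mice (3.46, 0.813, 2.20, 1.75 and 1.53 CPM), with log2 1.22 (SE 0.444, adjusted p = 0.734). Timp4 was at 2.47 and 1.72 CPM, below the untreated mice, with log2 -2.05 (SE 0.877, adjusted p = 0.734), and Adamts16 had log2 -0.99 (SE 0.376, adjusted p = 0.734). Mmp9 (gelatinase B) had log2 0.83 (SE 0.308, adjusted p = 0.734) with overlapping groups. The T cell sums given above did not overlap between uncured and untreated mice, while the macrophage sums did, and their part in these values was not tested. In anti-PD1 against untreated mice 0 of 44 members passed and 2 had an unadjusted p under 0.05 (0.0% and 1.31% of all genes), namely Adamts2 (log2 0.43, SE 0.191, adjusted p = 1) and Adamts14 (log2 0.49, SE 0.178, adjusted p = 1). Without anti-PD1 mouse 5 the counts were 0 and 3 of 44 (0.0% and 1.99% of all genes). In anti-CTLA4 against untreated mice both counts were 0 of 44 (0.0% and 0.811% of all genes). With all 5 dual ICI mice as the labels group them, 0 of 44 passed against untreated mice (0.0% of all genes) and 4 had an unadjusted p under 0.05 (6.87% of all genes). Timp1, which set tumor-bearing and cured mice apart, had a log2 difference of 0.22 (SE 0.358, adjusted p = 0.845) for uncured and -0.04 (SE 0.235, adjusted p = 1) for anti-CTLA4 over untreated mice.

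At 3wk, dual ICI and untreated mice were compared on day 21, after injections on days 5, 8 and 12. By edgeR's quasi-likelihood test 0 of 43 members passed, where 0.574% of all genes did, and 6 had an unadjusted p under 0.05, against 10.7% of all genes. The largest gap was in Mmp7, at 1.72, 7.12, 2.98, 3.54 and 3.04 CPM in untreated and 0.453, 0.0373, 0.926, 0.936 and 1.11 CPM in dual ICI mice. All 5 treated libraries were below all 5 untreated ones, with log2 -2.37 (SE 0.568, adjusted p = 0.104). Mmp28 was at 10.7, 8.59, 11.4, 13.9 and 8.20 CPM in untreated and 4.81, 4.21, 4.73, 6.60 and 8.25 CPM in dual ICI mice, which overlap, with log2 -0.87 (SE 0.220, adjusted p = 0.128). These 2 genes passed when DESeq2 replaced edgeR (adjusted p = 0.00137 and 0.00928). Mmp12 was at 3.68, 0.968, 2.36, 4.50 and 2.00 and 3.13, 6.86, 2.98, 23.5 and 4.01 CPM, and 1 dual ICI library, that of mouse 4, was far above the rest (3.04-fold in all, adjusted p = 0.361). Mmp25 (log2 0.63, SE 0.232, adjusted p = 0.324), Adamtsl4 (log2 -0.50, SE 0.203, adjusted p = 0.399) and Adamts15 (log2 -0.45, SE 0.204, adjusted p = 0.464) were the others. The members' median was -0.26, against 0.02 for all genes tested, and 10 of 43 had a positive log2 difference. The gastric epithelium score was 3.16 to 4.49 in untreated and 2.76 to 4.36 in dual ICI mice, with overlap. Macrophage scores of 6.18 to 6.30 in untreated and 6.34 to 7.28 in dual ICI mice, and T cell sums of 15.5 to 30.9 and 47.1 to 88.9 CPM, did not overlap. The macrophage sums did, at 1844 to 2309 CPM in untreated and 2279 to 3864 CPM in dual ICI mice. Of the markers tested, 0 of 12 for macrophages and 3 of 9 for T cells passed, beside 0.574% of all genes. The part of these cells in the values of Mmp7, Mmp12 and Mmp25 was not tested.

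Between 3wk and 5wk, Mmp7 and Mmp11 rose and 5 Adamts genes, Adamtsl3 and Mmp19 fell in untreated mice. The library identifiers of the 2 time points belong to different number series, so time and library series cannot be told apart. Of 43 members 9 passed (2 higher, 7 lower at 5wk), against 10.8% of all genes (6.24% higher, 4.58% lower). Mmp7 went from 1.72, 7.12, 2.98, 3.54 and 3.04 to 14.9, 4.64, 28.1, 24.5 and 38.4 CPM, 5.99-fold (log2 2.58, SE 0.516, adjusted p = 0.014), and the ranges overlapped. Mmp11 went from 12.3, 15.8, 16.1, 18.2 and 10.9 to 36.6, 17.5, 28.6, 28.6 and 37.4 CPM, 2.03-fold (log2 1.02, SE 0.207, adjusted p = 0.0144), with 1 untreated 5wk library inside the 3wk range. Adamts2 went from 215, 306, 198, 248 and 207 to 107, 102, 101, 109 and 87.9 CPM without overlap, 2.32-fold lower (log2 -1.21, SE 0.149, adjusted p = 0.00326). Adamtsl3 was 1.68-fold lower (log2 -0.75, SE 0.131, adjusted p = 0.00881), and Mmp19 1.95-fold lower (log2 -0.96, SE 0.216, adjusted p = 0.0204), the latter lost without untreated 5wk mouse 5. Adamts3, another procollagen-processing enzyme (log2 -1.39, SE 0.361, adjusted p = 0.0338), Adamts5 (log2 -0.94, SE 0.260, adjusted p = 0.0423), Adamts10 (log2 -0.59, SE 0.150, adjusted p = 0.0309) and Adamts17 (log2 -1.07, SE 0.276, adjusted p = 0.0326) were also lower but lost the call without any 1 of 7 to 9 of the 10 mice. The members' median was -0.28 and that of all genes tested 0.02. Fibroblast marker scores went from 8.18 to 8.64 at 3wk to 7.53 to 8.06 at 5wk, without overlap, and their part in these differences was not tested.

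Under dual ICI, the 2 uncured mice at 5wk were set against the 5 mice at 3wk. The uncured mice were selected by outcome and had received further injections, whereas the later outcome of the 3wk mice is not known. Time, outcome, injections and library series therefore cannot be told apart in this comparison. Of 44 members 5 passed (4 higher, 1 lower), against 5.31% of all genes (3.05% higher, 2.26% lower). Mmp7 was at 13.4 and 3.76 CPM against 0.453, 0.0373, 0.926, 0.936 and 1.11 CPM (log2 3.59, SE 0.722, adjusted p = 0.0375), Adamts15 at 183 and 125 against 38.9, 48.4, 58.8, 80.8 and 60.8 CPM (log2 1.41, SE 0.265, adjusted p = 0.0348) and Mmp11 at 24.3 and 30.7 against 12.2, 9.28, 11.0, 10.7 and 14.9 CPM (log2 1.23, SE 0.205, adjusted p = 0.0318). None of these 3 genes overlapped between the groups. Gastric epithelium scores, at 4.82 to 4.89 in uncured and 2.76 to 4.36 in dual ICI 3wk mice, did not overlap either, and their part in the result was not tested. Mmp15 was higher (log2 0.89, SE 0.199, adjusted p = 0.0442) and Adamts3 lower (log2 -1.35, SE 0.241, adjusted p = 0.0333). All 5 calls were lost without uncured mouse 1 or 5, or dual ICI 3wk mouse 1, 2 or 3, while 14 members passed without dual ICI 3wk mouse 4. A further test asked whether the dual ICI difference from untreated mice changed between 3wk and 5wk. For dual ICI at 5wk this test held the 2 uncured mice alone, without the cured ones. The selection by outcome applies to this test as well. It gave 0 of 45 members with edgeR (0.0% of all genes) and 0 with DESeq2. In edgeR, 2 of 45 members had an unadjusted p under 0.05, against 6.35% of all genes. These were Mmp15 (log2 0.76, SE 0.289, adjusted p = 0.707) and Mmp9 (log2 0.81, SE 0.375, adjusted p = 0.707).

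The wider protease pathway was described from lists of regulators, substrates, cytokines and transcription factors. The lists were chosen with earlier results known and are described by counts alone. Of 25 regulators of matrix proteases tested, 17 passed in untreated 5wk against cured mice (10 higher, 7 lower) and 24 in uncured against cured mice (17 higher, 7 lower), beside 44.7% and 70.0% of all genes. Plaur, the urokinase receptor (log2 2.26, SE 0.280), Sdc1, a heparan sulfate proteoglycan of epithelium (log2 3.16, SE 0.332), and Adam12, a membrane protease (log2 2.57, SE 0.374), were higher in untreated mice. Plau, urokinase itself (log2 -1.25, SE 0.137), and Reck, a membrane-anchored MMP inhibitor (log2 -1.02, SE 0.152), were lower. Of 24 matrix substrates tested, 9 passed (8 higher, 1 lower), a smaller share than the 44.7% of all genes, among them Spp1, osteopontin (log2 5.53, SE 0.670), Fbn2, fibrillin 2 (log2 4.02, SE 0.555), and Tnc, tenascin C (log2 3.92, SE 0.401). Nid1, a basement membrane linker, was the lower one (log2 -1.08, SE 0.211). All 10 tested cytokines known to raise MMP genes were higher, among them Il6 (log2 2.28, SE 0.802), Il1b (log2 4.24, SE 0.475) and Tnf (log2 3.87, SE 0.329), and 6 of 14 AP-1 and ETS factors were, among them Elf3, an epithelial factor (log2 6.53, SE 0.489), Junb (log2 1.67, SE 0.223) and Runx2 (log2 2.82, SE 0.356), with none lower. Jun and Fos, at log2 -0.34 (SE 0.177) and -0.62 (SE 0.373), did not pass. The count for these factors is near the 44.7% of all genes. The median log2 fold changes of the 4 lists, in the order given, were 0.40, 0.29, 2.08 and 0.62, beside 0.05 for all genes tested. From 3wk to 5wk in untreated mice, 10 of 24 substrates passed and all were lower, beside 4.58% of all genes that were lower, among them Col3a1 (log2 -1.27, SE 0.275) and Col1a1 (log2 -0.94, SE 0.247), the fibrillar collagens that Adamts2 trims. No gene of the 4 lists passed for dual ICI against untreated mice at 3wk or for uncured against untreated mice at 5wk.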

How the data were processed

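RNA-seq counts per gene of 29 mice were used. The authors deposited raw counts, not normalized, listed by gene symbol. The study's methods name STAR 2.5.2b and HTSeq 0.6.1 with mm10 and 150 bp paired-end reads, whereas the submitters' processing notes name STAR 2.7.0f and featureCounts 1.6.4, and the annotation and strand setting are not given in the sources used here, so counts of overlapping genes are uncertain. From these counts edgeR 4.0.16 in R 4.3.3 was run on the libraries of the groups compared, with TMM scaling, its default filter on low counts by group, and the quasi-likelihood test with p-values adjusted by Benjamini-Hochberg across every tested gene and called at 0.05. The tests were 2-sided and the design held the group alone. The fit was tested on simulated data for 4 of the 12 comparisons. Alternatives were DESeq2 1.42.0, its size factors (RLE), no filter, all 29 libraries in 1 fit, muscle genes left out, the replicate number as a block, and each mouse left out in turn. Members and lists were chosen with earlier results of these data known. Described singly were the 37 members that are a Timp, passed in at least 1 comparison, or were among the 3 highest of their family per length in any group. Positions and exon lengths came from GENCODE vM21 (GRCm38), matched by symbol for all 51 members, and promoters from RefSeq. The replicates are separate mice, and the library totals of 25989217 to 31219650 counts limit the precision of members at under 1 CPM. Libraries of a group differed by at least 13.5 times the sampling variance, so none was a repeat of another. Intervals and count ratios cover counting error only.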

Additional observations from a re-analysis of the deposited data

Results flagged for a closer look

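Of 185 sets of 4 or 5 libraries of 1 member and group, 20 held a library set far from the others of its group, where chance flags about 1 in 20. The library of anti-PD1 mouse 5 accounted for 7. It was the lowest of its group for Adamts4 (3.30 CPM, the others at least 15.8), Adamts7 (3.87 CPM, the others at least 13.3) and Mmp15 (64.8 CPM, the others at least 135), and the highest for Adamts20 (17.9 CPM, the others at most 5.91), Adamtsl4 (112 CPM, at most 72.9), Adamtsl5 (109 CPM, at most 77.2) and Timp4 (14.9 CPM, at most 7.58).

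Dual ICI 3wk mouse 4 was the highest of its group for Mmp12 (23.5 CPM, the others at most 6.86) and Mmp13 (3.42 CPM, at most 0.955) and the lowest for Adamtsl4 (31.1 CPM, the others at least 56.2). Dual ICI 3wk mouse 5 was the highest for Mmp25 (7.48 CPM, at most 4.60) and Adamts18 (0.987 CPM, at most 0.430). Anti-CTLA4 mouse 2 was the lowest for Adamts7 (7.78 CPM, the others at least 13.7) and Mmp15 (105 CPM, at least 154), and anti-CTLA4 mouse 1 the highest for Timp4 (8.90 CPM, at most 4.26).

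In untreated 3wk mice, mouse 5 was the highest for Adamts1 (112 CPM, the others at most 73.1), mouse 2 the highest for Adamts5 (117 CPM, at most 57.5) and mouse 4 the lowest for Adamts20 (5.22 CPM, the others at least 9.11). In untreated 5wk mice, mouse 2 was the lowest for Mmp2 (227 CPM, the others at least 343) and mouse 4 the highest for Mmp23 (45.9 CPM, at most 27.6).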

How the results depend on the processing

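Counts are of members passing. Against dual ICI-cured mice, leaving out 1 mouse gave 15 to 26 for untreated 5wk, 0 to 30 for anti-PD1, 20 to 26 for anti-CTLA4 and 27 to 31 for dual ICI-uncured mice. The range was 4 to 13 for untreated 5wk against 3wk, 0 to 14 for uncured against dual ICI 3wk, and 0 to 0 for the other 5 comparisons so tested. The calls for anti-PD1 were 0 without any mouse but anti-PD1 mouse 5. The interaction was not refitted without single mice. DESeq2 in place of edgeR gave 2 (Mmp7 and Mmp28) for dual ICI against untreated mice at 3wk, 14 for untreated 5wk against 3wk and 11 for uncured against dual ICI 3wk. All 29 libraries in 1 fit gave 2 for uncured against dual ICI 3wk and 11 for all dual ICI against untreated 5wk mice, where uncured and cured mice then had separate means by construction. The replicate number as a block gave 13 for untreated 5wk, 27 for anti-PD1 and 26 for anti-CTLA4 against cured mice, 10 for untreated 5wk against 3wk and 12 for uncured against dual ICI 3wk, and 0 wherever the fit without it gave 0. The labels give same-numbered mice no link but the number. In no comparison with 3 or more pairs was every correlation of their deviations over 0.1 (lowest -0.696, highest 0.684). This does not exclude a link between single pairs. No block could be fitted for uncured against cured mice, which share no number. For single genes named, 793 values kept their side of the threshold under the other settings, 45 newly passed it and 37 no longer did. Without 1 mouse these counts were 859, 27 and 216, and no value changed direction. Except where stated, the cause was not tested. A gene near 1 CPM, such as Adamts18 or Mmp8, rests on few counts per library, so small differences in such members were not detectable at this depth.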
